A study of Mus musculus with 23 samples.

Results

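Gene expression was compared between p53 -/- and p53 +/+ mouse embryos that had been held in a hot water bath. Of the 23 arrays of the study, the comparison used the 7 made from heat-treated pools of these genotypes, chosen by their titles, which were 3 null pools (A to C) and 4 wildtype pools (A to D). Embryos came from crosses of p53 heterozygous mice at embryonic day 8.5, were kept at 43 °C (heat) or 38 °C (control) for 10 minutes, and were pooled by genotype and bath before RNA extraction, with 3 to 7 whole embryos in a pool. The 4 heat-treated p53 +/- pools entered the same fit and are given beside the main comparison. The labels used here name neither the targeted allele nor the strain, nor the time between bath and collection. Each sample was 1 CodeLink one-colour array of 36227 probes, on which no probe carried the symbol Trp53, so the genotype was not checked against its own transcript.

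The transcription factor p53 is kept scarce in unstressed cells by the ubiquitin ligase Mdm2 and is stabilised by DNA damage, heat and other stress. It binds DNA as a tetramer at pairs of half-sites and raises genes that stop the cell cycle (Cdkn1a, the inhibitor p21), trigger mitochondrial apoptosis (Bbc3, Puma, and Pmaip1, Noxa), adjust metabolism and growth signalling (Sesn2, Phlda3), and feed back on p53 itself (Mdm2, Ccng1). In embryos at the stage of neural tube closure, heat is a known teratogen, and p53 is known for its part in stress-induced cell death.

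A promoter window around the annotated start of transcription was read from RefSeq (GRCm38.p6) for 10395 of the 12978 tested genes. The remaining genes, including Pmaip1 and all others on its chromosome, which was left out, were not searched. Each window was searched on both strands for the p53 half-site, a consensus of 10 bases that is its own reverse complement. The windows are shown for the genes with the largest falls in null pools that held a half-site, and for Cdkn1a, whose window held a pair. Each is written 5′ to 3′ on the gene's strand, with the half-sites in capitals.
Ccng1, minus strand, chr11:40755237-40755536: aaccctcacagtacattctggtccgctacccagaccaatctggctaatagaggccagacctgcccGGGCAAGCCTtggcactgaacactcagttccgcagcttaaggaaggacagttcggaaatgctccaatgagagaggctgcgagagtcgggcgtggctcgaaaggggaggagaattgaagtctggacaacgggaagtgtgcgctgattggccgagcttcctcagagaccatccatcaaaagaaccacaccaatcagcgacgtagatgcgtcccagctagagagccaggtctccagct
1700007K13Rik, minus strand, chr2:28466275-28466574: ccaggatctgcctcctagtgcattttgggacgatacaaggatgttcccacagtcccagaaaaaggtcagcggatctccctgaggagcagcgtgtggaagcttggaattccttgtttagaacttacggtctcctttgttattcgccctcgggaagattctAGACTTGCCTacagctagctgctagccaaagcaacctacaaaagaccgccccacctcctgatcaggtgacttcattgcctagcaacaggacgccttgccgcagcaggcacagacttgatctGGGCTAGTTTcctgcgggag
Ddit4l, plus strand, chr3:137623422-137623721: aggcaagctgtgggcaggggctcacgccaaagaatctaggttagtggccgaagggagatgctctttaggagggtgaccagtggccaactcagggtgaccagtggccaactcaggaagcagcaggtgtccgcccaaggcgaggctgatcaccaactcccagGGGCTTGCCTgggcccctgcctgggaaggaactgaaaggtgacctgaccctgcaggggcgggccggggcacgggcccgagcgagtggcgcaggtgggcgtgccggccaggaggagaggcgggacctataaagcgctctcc
Cdkn1a, plus strand, chr17:29090729-29091028: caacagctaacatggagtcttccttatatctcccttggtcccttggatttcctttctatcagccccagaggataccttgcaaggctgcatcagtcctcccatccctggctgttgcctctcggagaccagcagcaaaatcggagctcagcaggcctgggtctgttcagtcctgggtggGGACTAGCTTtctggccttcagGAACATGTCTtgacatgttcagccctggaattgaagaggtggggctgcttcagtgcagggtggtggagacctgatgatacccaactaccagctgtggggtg
In Ccng1 the half-site began 185 bases before the start, and in Ddit4l it began 90 bases before it. 1700007K13Rik had one that began 91 bases before the start and another 30 bases after it. The half-sites of Cdkn1a began 73 and 51 bases before the start, in 1 of the 2 windows of that gene. A half-site stood in the window of 894 of the 10395 tested genes with a window (8.6%), and of 4 of the 9 genes with a window that had a probe lower in null pools, Celf5, which had 5 windows and so more chances of a match, being the fourth. None of the 5 genes with a probe higher in null pools had one. A pair of half-sites with a spacer of at most 13 bases was found for 6 of 10395 genes (0.0577%). These are exact matches of letters in a short window. Near matches, such as the tgacatgttc that follows the second half-site of Cdkn1a, were not counted, and binding was not measured.

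The inducible Hsp70 genes Hspa1a and Hspa1b divided the heat-treated pools across genotypes and are given first. Hspa1a, the stress-inducible Hsp70 chaperone, read 75, 0.867, 116 and 96.9 (intensity in relative units after normalization) in wildtype pools A to D and 1.76, 114 and 2.09 in null pools A to C. Wildtype pool B was therefore the lowest of the heat pools, below null pools A and C, and null pool B lay within the range of the other wildtype pools. In the 4 heterozygous pools it lay between 1.49 and 2.07. In the control bath, whose arrays were normalized separately, the means were 0.871 ± 0.166 (SD) in wildtype and 0.846 ± 0.117 in null pools. The twin gene Hspa1b, whose near-identical sequence probes may not separate, was 4.1 in wildtype pool B and 88.8 in null pool B. Neither gene passed the threshold between null and wildtype pools (Hspa1a −1.97 ± 1.71, limma adjusted p = 0.55; Hspa1b −1.78 ± 1.18, adjusted p = 0.44). The Y-linked gene Eif2s3y also stood apart in null pool B, at 0.163 against 13.5 and 11.5 in null pools A and C. There Y-linked Kdm5d was 2.69 against 4.11 and 4.8, Y-linked Usp9y 2.24 against 2.44 and 2.45, and X-linked Xist 1.56 against 0.538 and 0.75. Whether null pool B differed in the sex of its embryos was not tested. Wildtype pool B, at 8.59, lay within the range of the other wildtype pools for Eif2s3y. For these reasons the counts below are also given without the B pools.

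Across 22767 probes tested, 18 differed between null and wildtype heat pools (0.0791%; limma, adjusted p under 0.05), of which 13 were lower (0.0571%) and 5 higher (0.022%) in null pools. Of these 18 probes, 15 carried a single gene symbol and the other 3 were unnamed. For all 18 the null pools lay outside the range of the wildtype pools, as selection on this difference nearly ensures (all null pools lay below all wildtype pools for 4.16% of genes tested, and above for 6.77%). The heterozygous mean lay between both group means for all 18. Selection for a wide gap between those means favours this too, and the share over all probes was not computed. Before adjustment, 3438 probes (15.1%) had p under 0.05. Leaving out 1 pool gave 11 calls without wildtype pool A, 24 without wildtype pool B, and 5, 3 and 6 without null pools A, B and C; without both B pools there were 13, of which 7 were among the 18. A fit of the 7 arrays alone, without the heterozygous pools that help to estimate the spread, called Dennd5b only. Dennd5b passed the threshold in all 19 other settings run and Ccng1 in 18, while each of the other named genes failed it in at least 5. With the log2 level of Hspa1a as a covariate there were 16 calls, 15 of them among the 18. The share of calls that were higher was 27.8%, against 50% with values as deposited and 40% with arrays centred on their medians. Quantile normalization moved the median null minus wildtype difference of all tested probes by 0.146 on the log2 scale, from 0.136 as deposited to −0.0101, and every difference below is relative to that scale.

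**Figure D1:**
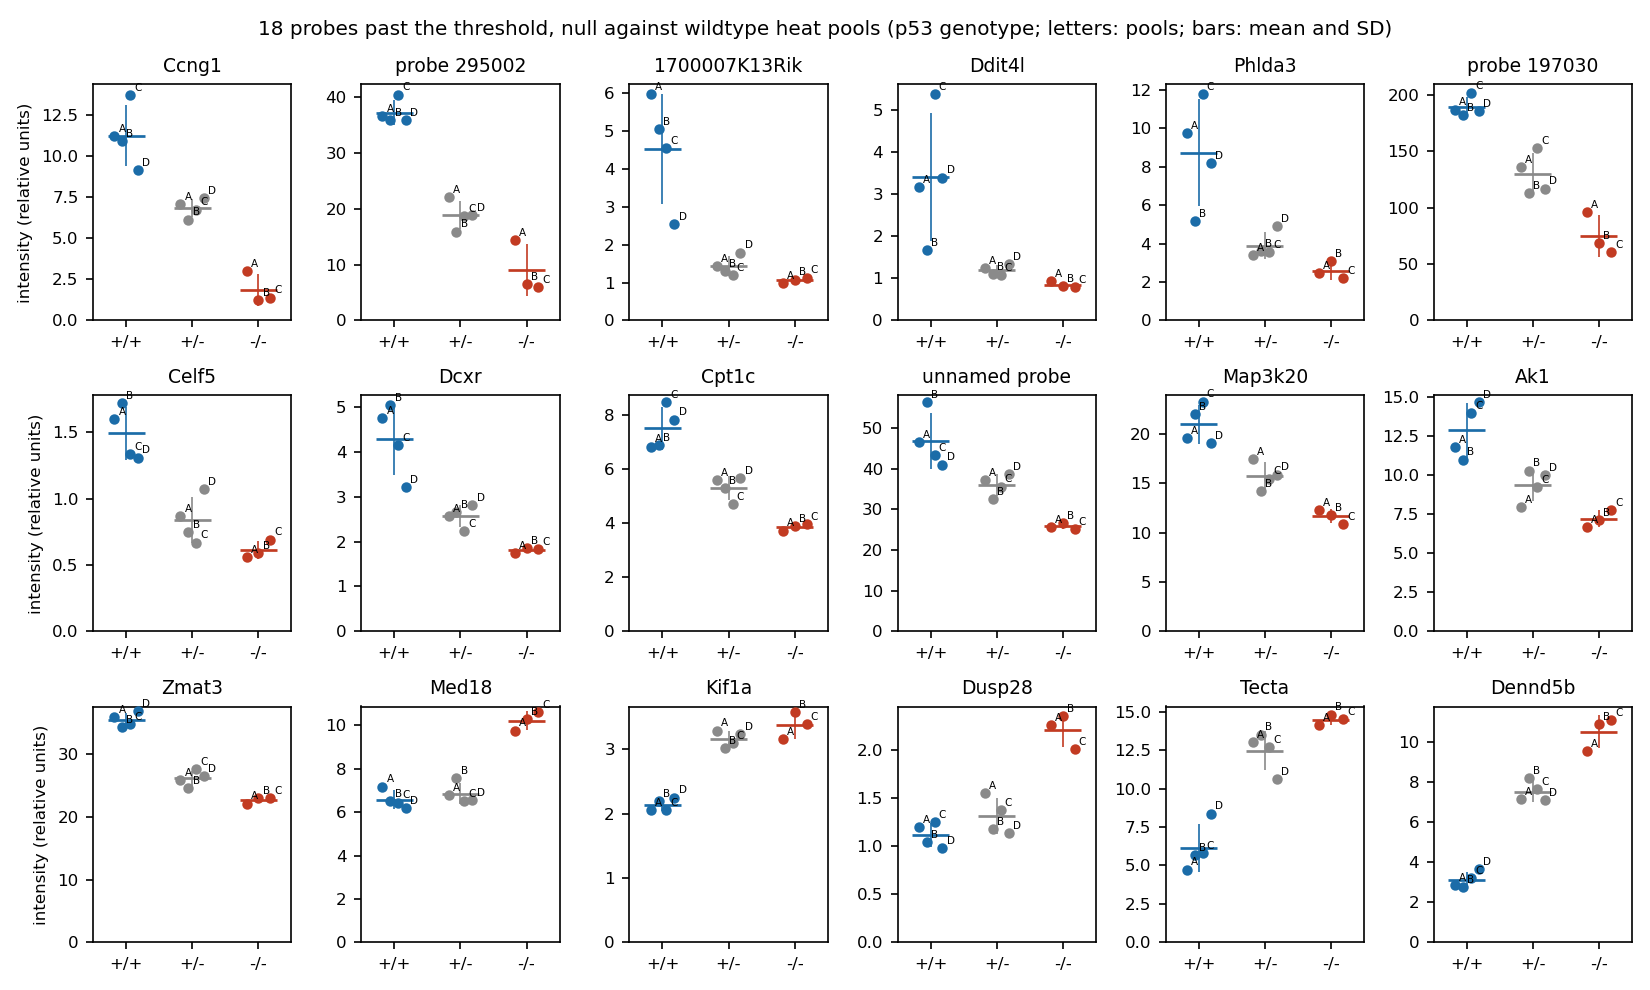
Intensity (relative units, linear axes from 0) of the 18 probes that differed between null and wildtype heat pools, with 1 point a pool, horizontal bars for the mean and vertical bars for the SD. Ccng1 lay between 9.15 and 13.7 in wildtype, between 6.13 and 7.44 in heterozygous and between 1.23 and 2.99 in null pools; Dennd5b ran the other way.

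Among genes that act on the cell cycle and on p53 itself, Ccng1 had the largest called fall. Ccng1 encodes cyclin G1, a p53 target that brings a phosphatase to Mdm2, and it read 11.2, 10.9, 13.7 and 9.15 in wildtype pools A to D and 2.99, 1.23 and 1.39 in null pools A to C. All null pools were far below all wildtype pools, and the heterozygous pools, at 6.13 to 7.44, overlapped neither. The mean was 1.87 ± 0.975 (SD, n = 3) in null against 11.3 ± 1.89 (SD, n = 4) in wildtype pools, a log2 difference of −2.69 ± 0.25 (SE; limma adjusted p = 0.003). Zmat3, a zinc finger protein that binds RNA, changed less. It was 35.8, 34.2, 34.8 and 36.8 in wildtype and 22.1, 23 and 22.9 in null pools, a fall of −0.64 ± 0.08 (adjusted p = 0.0095). The call was lost with values as deposited (−0.38, adjusted p = 0.19) and with arrays centred on their medians (−0.53, adjusted p = 0.2).

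Cdkn1a had the largest log2 difference of all genes tested, −2.95 ± 0.54, but did not pass the threshold (limma adjusted p = 0.12). It read 32.7, 9.59, 32.6 and 21.3 in wildtype pools and 3.87, 4.57 and 1.23 in null pools, so the groups did not overlap but wildtype pool B was low and null pool C lower than the other null pools. Its adjusted p was 0.043 without wildtype pool B, 0.26 without null pool B and 0.08 without both B pools. Without null pool C the difference was −2.34 (adjusted p = 0.49). The heterozygous pools, at 1.91 to 5.37, overlapped the null pools. Other members of the list were not called: Btg2, an inhibitor of proliferation, was at −0.69 ± 0.35, the kinase Plk2 at −0.52 ± 0.27, Gadd45a at −0.03 ± 0.12 and Ccng2, the relative of cyclin G1, at 0.16 ± 0.16. In the list of p53 targets for cell cycle arrest, 2 of 15 tested genes (Ccng1 and Zmat3) fell and none rose, with a median log2 difference of −0.24. Over all 12978 genes tested, each by its brightest probe, 9 were lower (0.0693%) and 4 higher (0.0308%), and the median was 0.04.

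None of the apoptotic targets passed the test, and most had negative differences. Pmaip1, the BH3-only protein Noxa, read 21.9, 8.04, 27 and 17 in wildtype pools and 4.79, 9.88 and 4.8 in null pools. Wildtype pool B and null pool B overlapped here, the B pools again standing apart from their groups, and the difference was −1.47 ± 0.36 (limma adjusted p = 0.25). The adjusted p was 0.037 without wildtype pool B, 0.34 without null pool B, 0.53 without null pool C and 0.0032 without both B pools. Bbc3, the BH3-only protein Puma, was 4.46, 2.78, 6.64 and 5.49 in wildtype and 2.46, 2.31 and 2.19 in null pools, with no overlap. Its difference was −0.99 ± 0.23 (adjusted p = 0.22). Here the adjusted p was 0.017 without wildtype pool B, 0.49 without null pool B, 0.53 without null pool C and 0.078 without both B pools. Of 11 tested genes of the apoptosis list none was called, 9 had a negative difference (against 42.7% of all genes tested) and the median was −0.26. Ei24 (−0.75 ± 0.26), a protein of the endoplasmic reticulum, and Aen (−0.61 ± 0.23), a nuclease, lay toward the lower end, while Perp, a membrane protein of desmosomes, was at −0.15 ± 0.21, and Siva1 (0.18 ± 0.22) and Trp53i11 (0.18 ± 0.13) were the 2 members above 0. The wider list of the BCL2 family, which holds Pmaip1 and Bbc3 too, had no call among 15 genes and a median of 0.05.

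Targets with metabolic and signalling roles supplied 3 further calls. Phlda3, which competes with the kinase Akt for membrane lipids, was 9.77, 5.17, 11.8 and 8.21 in wildtype pools against 2.45, 3.11 and 2.2 in null pools. The groups did not overlap, and the lowest wildtype value was again that of pool B. The difference was −1.71 ± 0.25 (limma adjusted p = 0.027). Dcxr, a reductase of sugars and dicarbonyls, was 4.74, 5.03, 4.15 and 3.22 in wildtype and 1.74, 1.86 and 1.83 in null pools. Its fall of −1.22 ± 0.15 (adjusted p = 0.0095) had a very small spread among null pools. Ak1, an adenylate kinase that balances adenine nucleotides, was 11.8, 11, 14 and 14.7 in wildtype and 6.7, 7.12 and 7.79 in null pools, a fall of −0.83 ± 0.13 (adjusted p = 0.045). The call on Ak1 was lost in 14 of 19 other settings, among them values as deposited (−0.55, adjusted p = 0.18) and arrays centred on their medians (−0.70, adjusted p = 0.21). That on Phlda3 was lost in 10, values as deposited among them (−1.49, adjusted p = 0.083).

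Several members of this group had large differences that were not called. Sesn2, a sestrin that restrains mTORC1, was 3.68, 2.13, 4.88 and 3.34 in wildtype and 1.46, 1.75 and 1.31 in null pools, without overlap (−1.17 ± 0.22, limma adjusted p = 0.14). Its adjusted p was 0.017 without wildtype pool B, 0.3 without null pool B, 0.53 without null pool C and 0.025 without both B pools. Slc19a2, a thiamine transporter, had means of 5.66 and 1.85 (−1.52 ± 0.36, adjusted p = 0.23). Sesn1, of the same family as Sesn2, was at 0.33 ± 0.15 (adjusted p = 0.33). Among the 35 tested genes of the metabolism and signalling list, 3 fell and none rose, the median was −0.18, and in 10 of them all null pools were below all wildtype pools, against 4.16% of all genes tested. Of 10 tested genes that restrain or stabilise p53, 1 (Ccng1) fell and the median was 0.02. Fbxw7, a part of a ubiquitin ligase (−0.61 ± 0.29), Mdm2 (0.28 ± 0.44), its partner Mdm4 (0.11 ± 0.14) and the phosphatase Ppm1d (0.18 ± 0.19) were not past the threshold. Mdm2 was dim, at 0.372 to 1.11 in wildtype and 0.537 to 0.929 in null pools. The p53 relative Trp63 stood at 0.56 ± 0.13 (adjusted p = 0.21), with all null pools above all wildtype pools, and a second probe at −0.01 ± 0.15.

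Over the 4 lists of p53 targets, 70 of the 91 listed genes were tested. Of these, 5 fell and none rose. A negative difference was found for 51 of the 70, against 42.7% of all genes tested, and the median was −0.17, against 0.04. With values as deposited the median of the 70 was −0.0016 while that of all probes was 0.136. All null pools lay below all wildtype pools for 16 of the 70, against 4.16% of all genes, and above them for 1, against 6.77%. At an unadjusted p under 0.05, 20 of the 70 were lower, against 3.56% of all genes. The lists were chosen with earlier results of these data known, so these shares, here and for the single lists, are a description. Without wildtype pool A, C or D 3 of the 70 fell, without wildtype pool B 10, without null pool A or C 1 (Ccng1), without null pool B 2 (Ccng1 and Zmat3), and without both B pools 5 (Ccng1, Zmat3, Phlda3, Pmaip1 and Sesn2). In the single pools, the median log2 distance of the 70 genes from the wildtype mean was −0.02, −0.12, 0.12 and 0.01 in wildtype pools A to D, −0.19, −0.18 and −0.14 in null pools, and −0.24, −0.18, −0.17 and −0.07 in heterozygous pools. The heterozygous pools thus covered the range of the null pools for the list as a whole. For the 5 genes that fell, the heterozygous pools lay from −0.73 to −0.58 and the null pools from −1.28 to −1.19; these genes were chosen by that very difference between null and wildtype pools.

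**Figure D2:**
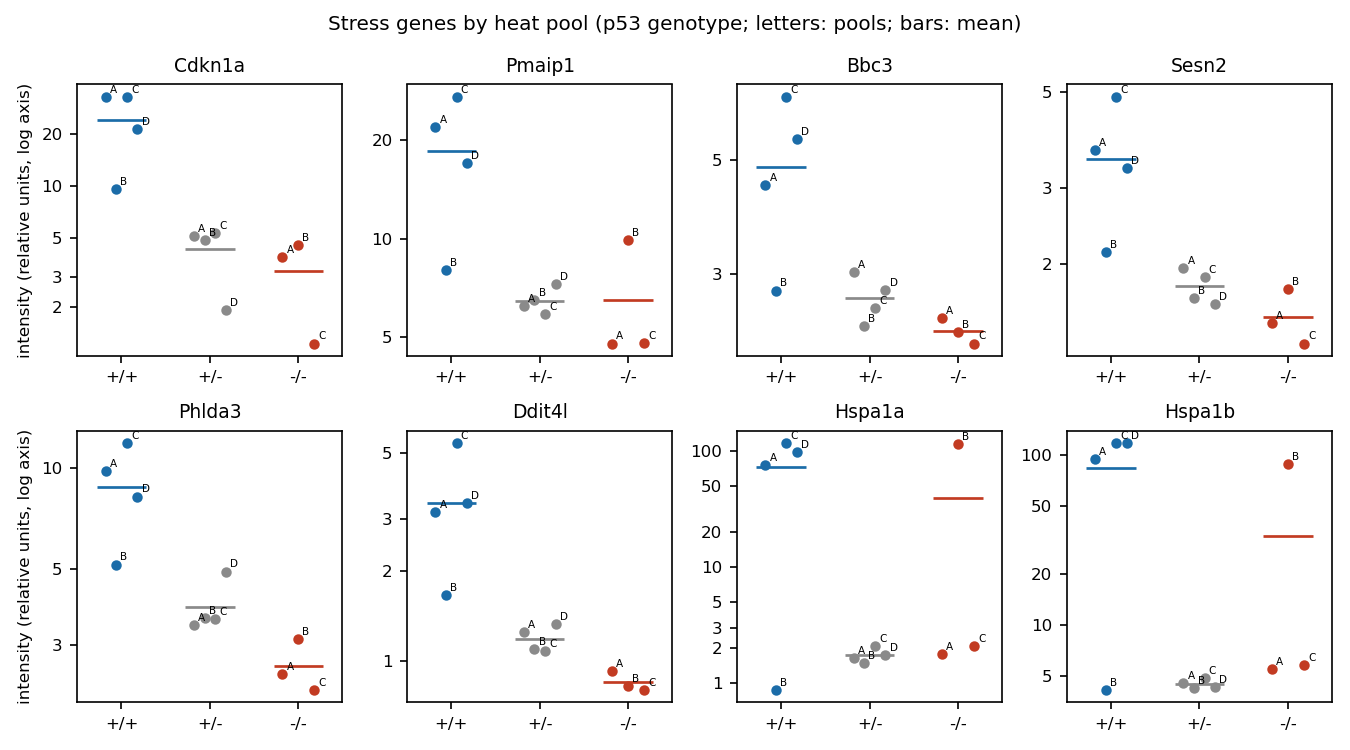
Intensity (relative units, log axes) of Cdkn1a, Pmaip1, Bbc3, Sesn2, Phlda3 and Ddit4l and of both Hsp70 genes, with 1 point and letter a pool and horizontal bars for the group mean. Wildtype pool B was the lowest wildtype pool for these 8 genes (pool D was for Ccng1, Dcxr and 1700007K13Rik, not drawn), and Hspa1a was 0.867 there against 114 in null pool B.

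Outside the lists, 4 other named genes were lower. The lists are not complete, so absence from them does not mean that a gene is no p53 target. Ddit4l, a relative of the mTORC1 inhibitor Ddit4, was 3.16, 1.67, 5.37 and 3.39 in wildtype and 0.927, 0.824 and 0.8 in null pools, and 1.08 to 1.33 in heterozygous pools. The heterozygous pools were much closer to the null pools than to the wildtype pools, and the null minus wildtype difference was −1.88 ± 0.29 (limma adjusted p = 0.045). 1700007K13Rik, given by its symbol in the annotation used here, was 5.97, 5.05, 4.56 and 2.54 in wildtype and 0.996, 1.08 and 1.13 in null pools. Its heterozygous pools were at 1.19 to 1.79. Again no pool overlapped between wildtype and the other genotypes, and the difference was −2.02 ± 0.24 (adjusted p = 0.0098). Map3k20, the stress kinase ZAK that senses stalled ribosomes, was 19.6, 22 and 23.3 in wildtype pools A to C, slightly under 19.6 in pool D, and 12.3, 11.8 and 10.9 in null pools (−0.84 ± 0.10, adjusted p = 0.01), but was not called with values as deposited (−0.55, adjusted p = 0.17) or with arrays centred (−0.70, adjusted p = 0.062). Its 2 other probes gave −0.61 ± 0.22 and −0.28 ± 0.12, in the same direction but not called. Celf5, a splicing regulator known from neurons, was 1.6, 1.72, 1.34 and 1.31 in wildtype and 0.563, 0.588 and 0.692 in null pools (−1.28 ± 0.17, adjusted p = 0.018).

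Cpt1c, the brain form of carnitine palmitoyltransferase and a listed p53 target, gave a divided result. One probe was 6.82, 6.88, 8.47 and 7.82 in wildtype and 3.72, 3.89 and 3.97 in null pools (−0.95 ± 0.11, limma adjusted p = 0.0071; 0.12 with values as deposited). The brighter probe of the gene, with means of 62.3 and 64.8, was not past the threshold (0.06 ± 0.10, adjusted p = 0.75). The gene was therefore not among the 5 targets counted as lower. The unnamed probes that fell included 295002 (−2.17 ± 0.24) and 197030 (−1.36 ± 0.15), both with adjusted p = 0.0071.

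Genes that were higher in null pools did not belong to any of the lists. Dennd5b, an activator of Rab GTPases, had the smallest p of all, and its called probe read 2.86, 2.78, 3.22 and 3.65 in wildtype and 9.57, 10.9 and 11.1 in null pools. The heterozygous pools, at 7.1 to 8.21, lay between both groups without overlap. The difference was 1.76 ± 0.11 (limma adjusted p = 0.0001), and heterozygous minus wildtype was 1.28 ± 0.11 (adjusted p = 0.0015), the only call of that contrast (0.00439%), in which 2114 probes (9.29%) had an unadjusted p under 0.05. A brighter probe of the gene differed by 0.18 ± 0.11 (adjusted p = 0.41), so the rise rests on 1 probe. Tecta, the inner ear matrix protein alpha-tectorin, was 4.73, 5.66, 5.82 and 8.37 in wildtype and 14.1, 14.8 and 14.5 in null pools (1.27 ± 0.16, adjusted p = 0.015). Its heterozygous pools were close to the null level at 10.6 to 13.5.

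The other 3 rises were smaller. Kif1a, a kinesin of axonal transport, was 2.06, 2.2, 2.05 and 2.25 in wildtype and 3.16, 3.58 and 3.39 in null pools (0.66 ± 0.09, limma adjusted p = 0.018). Dusp28, a phosphatase of the dual-specificity family, was 1.2, 1.04, 1.25 and 0.984 in wildtype and 2.26, 2.35 and 2.01 in null pools (0.99 ± 0.14, adjusted p = 0.021; 0.1 with arrays centred on their medians). Med18, a subunit of the Mediator complex, was 7.18, 6.52, 6.44 and 6.19 in wildtype and 9.76, 10.3 and 10.6 in null pools (0.63 ± 0.09, adjusted p = 0.027). For Med18 the heterozygous pools, at 6.52 to 7.56, overlapped the wildtype pools, whereas for Kif1a they stood at 3.02 to 3.29, near the null level. Over the 18 probes the heterozygous mean lay between 8.96% and 85.6% of the way from wildtype to null on the log2 scale, with a median of 57%. As these probes were selected on the null minus wildtype difference, the positions are a description. Null minus heterozygous gave no call (0%), with 706 probes (3.1%) at an unadjusted p under 0.05; these contrasts share arrays with the main one.

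The same genotypes in the control bath, on other arrays, served as the background of the comparison. Control columns were deposited with 7576 to 11666 empty cells each and heat columns with none. Control and heat intensities given here were normalized separately and are not on the same scale. Bath went together with this difference in the deposited columns, and its part in the differences between baths was not tested. There 2035 of 21977 probes differed between null and wildtype (9.26%), and 17 of the 18 probes entered that fit. Celf5 did not, as the heterozygous control pools gave 2 values for it. In 12 of the 17 the sign was the same, and 7 were called there the same way. Over all 21977 probes of that fit, the differences in both baths correlated at 0.221 (Pearson). The share with the same sign was not computed. The difference between baths was past the threshold for 12 of the 17, against 1.08% of all probes; as the 17 were selected on the heat contrast, that share is a description. Dennd5b (1.87 ± 0.14 in the control bath), Tecta (0.85 ± 0.13) and Kif1a (0.55 ± 0.11) differed in both baths, and the bath difference was not past the threshold for them. Ccng1 was already lower in null control pools, with means of 1.44 ± 0.147 (SD) against 4.05 ± 0.352 in wildtype and a difference of −1.49 ± 0.12. After heat, on the separate scale of the heat arrays, its wildtype mean was 11.3 and its null mean 1.87. The bath difference, from the fit of all arrays together, was −1.26 (limma adjusted p = 0.035).

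Several genes that fell after heat were not called in the control bath. 1700007K13Rik was 0.713 ± 0.06 (SD) in wildtype and 0.728 ± 0.116 in null control pools, a difference of 0.02 ± 0.10, and the bath difference was −2.07 (limma adjusted p = 0.0025). The floor of the control values was 0.67, and 1 of 4 wildtype and 3 of 4 null control pools lay on it, so a difference between genotypes was not measurable there. Ddit4l, at −0.35 ± 0.13 in the control bath, Dcxr, at −0.24 ± 0.10, and Zmat3, at −0.18 ± 0.08, were not called there. Dusp28 and Med18 turned over between baths: in control pools the null embryos were lower, by −0.95 ± 0.15 and −0.59 ± 0.15, and the bath differences were 1.93 (adjusted p = 0.00014) and 1.23 (adjusted p = 0.0057). Cdkn1a was lower in null control pools too, with means of 1.3 ± 0.203 against 5.35 ± 0.779 and a difference of −2.04 ± 0.42 (adjusted p = 0.023), and its bath difference was not past the threshold (adjusted p = 0.41). Pmaip1, at −0.12 ± 0.10, was not called in the control bath.

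**Figure D3:**
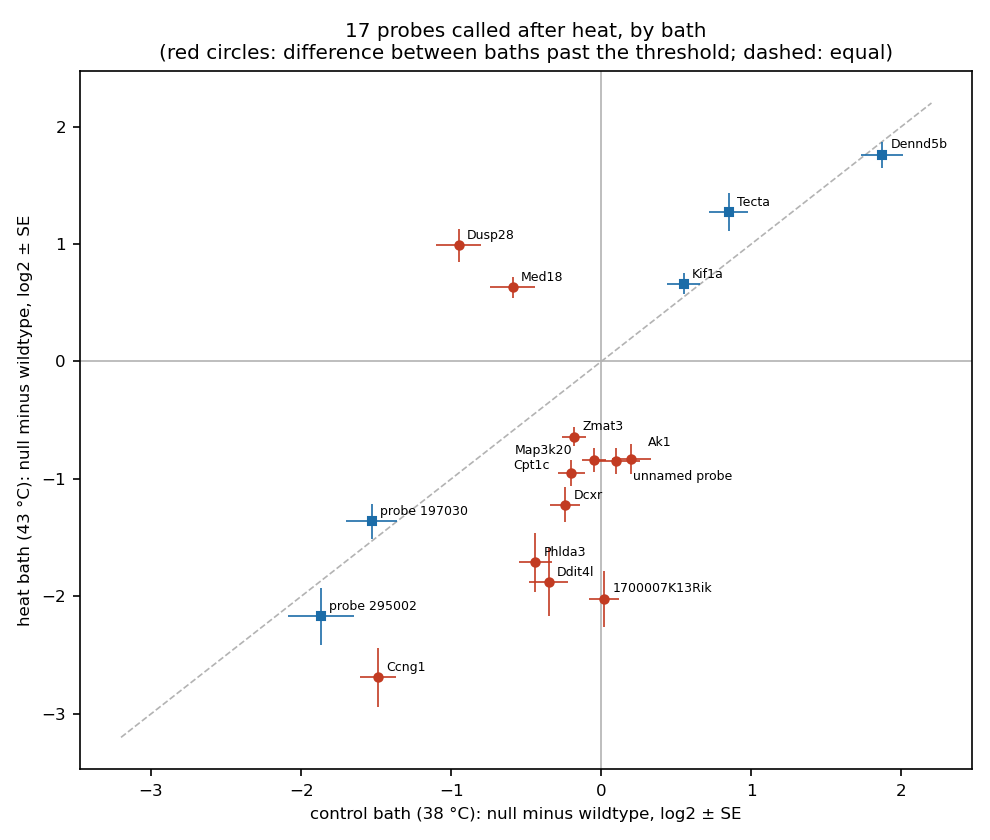
Null minus wildtype log2 difference after heat (vertical axis) against that in the control bath (horizontal axis) for the 17 called probes with values in both, with bars of 1 SE; red circles mark probes whose difference between baths passed the threshold and blue squares the others. Dusp28 and Med18 stood above 0 after heat and below 0 in the control bath, while Dennd5b lay on the line of equal differences.

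No other gene list held a call. The 37 heat shock proteins and co-chaperones tested had a median of 0.06, and Hspb1, a small heat shock protein, was 73.7 to 90.7 in wildtype and 62.3 to 77.1 in null pools (−0.26 ± 0.10, limma adjusted p = 0.31). The metal-binding protein Mt1 was at 0.32 ± 0.16 and Dnajb9, a chaperone of the endoplasmic reticulum, at 0.97 ± 0.22 (adjusted p = 0.21). Genes of the cell cycle, DNA repair, glycolysis, respiration and protein synthesis had medians between −0.01 (ribosomal proteins, 57 genes) and 0.17 (hypoxia and glycolysis, 27 genes). For neural tube closure and planar polarity, the median of 29 genes was −0.01, with Alx1, a homeobox gene of the head mesenchyme, at 0.55 ± 0.13 (adjusted p = 0.22) and Vangl2, a core polarity gene, at −0.24 ± 0.10. The 259 tested genes within 10 Mb of Trp53 on its chromosome, which can travel with the targeted allele in crosses, had no call and a median of 0.04.

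Markers of the tissues of the embryo were compared because bulk pools cannot tell fewer cells of a type from less RNA per cell. Defining genes of neural tube (Sox2, Pax6, Otx2), heart (Myl7, Actc1), paraxial mesoderm (Meox1) and primitive red cells (Hba-x) were present in both genotypes, as was Kdr of endothelium, at 17.9 to 24.1 in wildtype and 16.1 to 22.2 in null pools. Endothelial Cdh5, Tpbpa of trophoblast and Ptprc and S100a8 of blood cells were below the filter. Yolk sac and visceral endoderm genes had the highest median of all lists, 0.55 over 26 genes, with 22 of them above 0 and none called. Over all genes tested, 7437 of 12978 were above 0. Their summed intensity ran from 172 to 371 in wildtype and from 243 to 364 in null pools, so the groups overlapped. For this list the median was 0.79 for heterozygous minus wildtype and −0.18 for null minus heterozygous, so the rise was not particular to null pools. Its defining genes Afp (8.62 to 25.5 in wildtype, 15.9 to 31.3 in null pools), Ttr and Apoa1 overlapped between the groups. The members of smallest p were Fga and Trf. Fga, a fibrinogen chain, was 0.773, 0.475, 0.44 and 0.668 in wildtype and 1.37, 1.27 and 0.995 in null pools (1.07 ± 0.27, limma adjusted p = 0.25), and Trf, transferrin, was at 0.96 ± 0.26 (adjusted p = 0.28). Their part in the other differences was not tested. The decidual prolactin relative Prl8a2, a sign of maternal tissue, was dim at 0.159 to 0.293 in wildtype and 0.528 to 2.32 in null pools (2.06 ± 0.59, limma adjusted p = 0.29). Heterozygous pools were at 0.503 to 2.86, and the probe passed the filter only through null and heterozygous pools. The summed intensity of the trophoblast and decidua list overlapped, at 68 to 94.2 in wildtype and 60.4 to 89.6 in null pools.

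**Figure D4:**
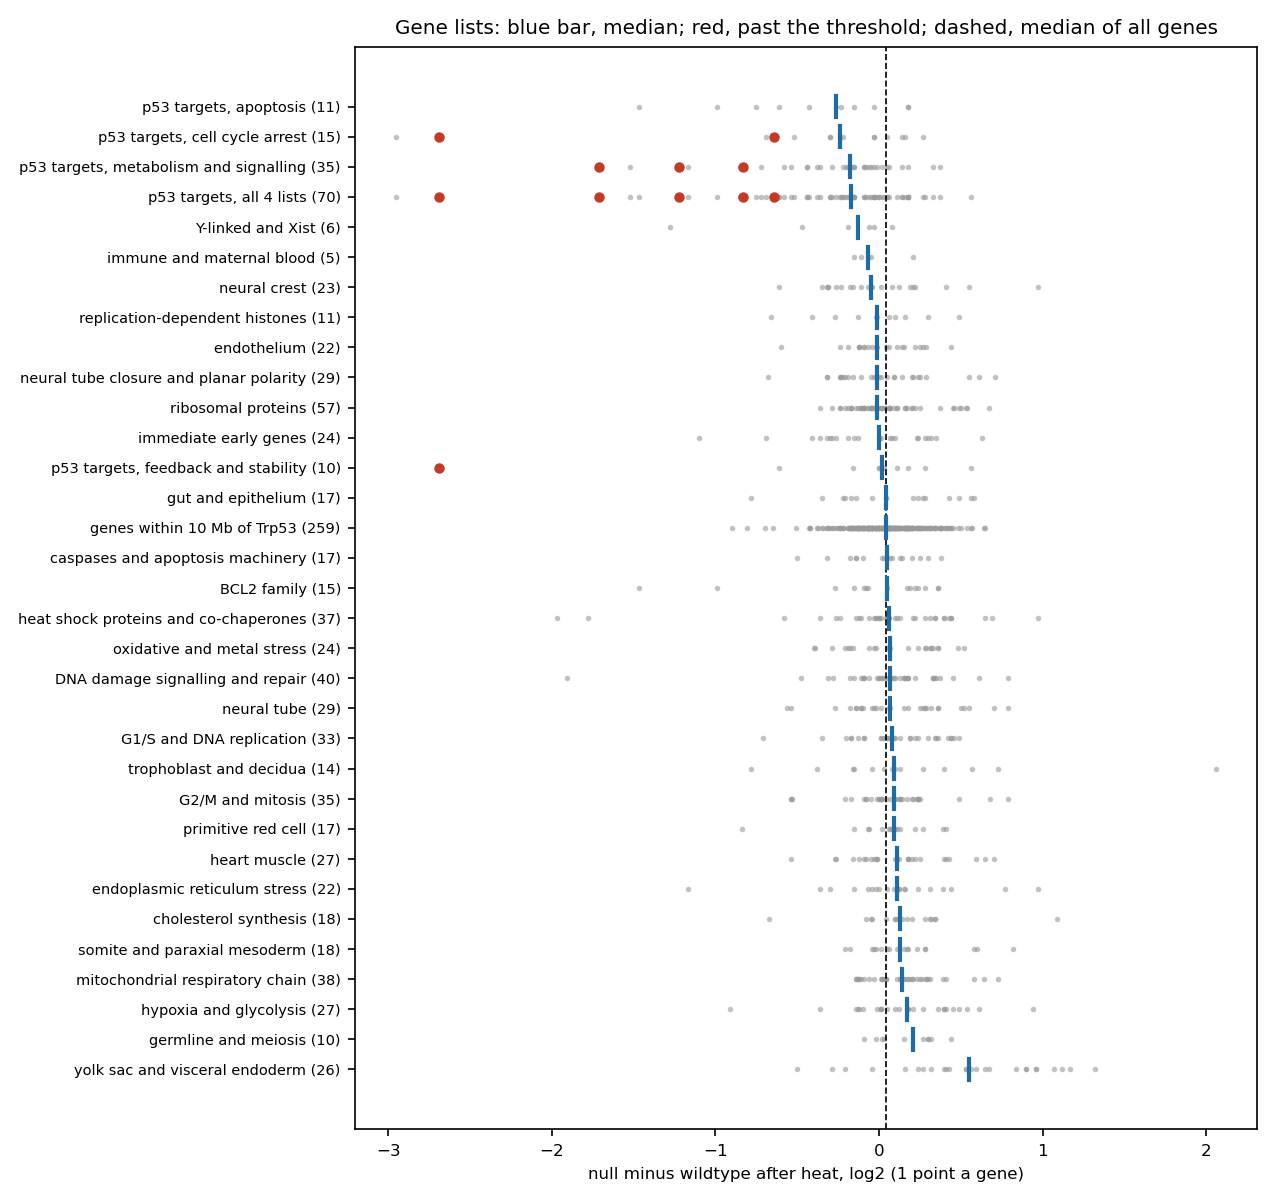
Null minus wildtype log2 difference after heat of each tested gene (1 point a gene, number of genes in parentheses) in each gene list, with blue bars for the median, red points for genes past the threshold and a dashed line at the median of all genes, 0.04. Red points appear in p53 target lists only, and the yolk sac list has the highest median at 0.55.

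For 656 tested probes the wildtype or the null control group had fewer than 3 values, and 52 of these had no value in either group, so that they were compared between heat pools only. None was called by limma (0%). At an unadjusted p under 0.05 stood 4 of the 91 probes with a median intensity above 32 and 96 of the 524 at or below 3. Over all probes tested that share was 15.1%. The 91 bright probes had a median difference of −0.04 and a range from −0.64 to 0.46, and the 524 dim probes a median of −0.22. All 18 calls came from the other 22111 probes (0.0814%).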

How the data were processed

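The deposited values were intensities of CodeLink one-colour arrays in the authors' series table, in relative units on a linear scale; how the authors background-corrected or normalized them is not given in the sources used here, although per the labels all samples were labelled alike. Cells coded as negative placeholders were treated as missing. The 11 heat arrays were quantile normalized, since their medians over tested probes differed by 0.3014 on the log2 scale, above a limit of 0.1; over all probes the medians differed by 0.0115 only, and the limit was read as applying to tested probes. Values were floored at the 5th percentile (0.09595) before log2, and 22767 of 36227 probes above the 40th percentile on at least 3 arrays, with at least 3 values a group, were tested.

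limma 3.58.1 (R 4.3.3; lmFit, eBayes with intensity trend, two-sided, Benjamini-Hochberg adjustment, threshold 0.05) was fitted to the 3 genotype groups and tested on simulated data. The 12 control arrays were normalized and fitted alone, and the difference between baths over all 23 arrays together. Depth has no counterpart on arrays; the number of pools limits the precision. Probe names came from the platform annotation, updated to RefSeq gene IDs for 21487 probes; 128 kept the annotation's symbol, 681 named several genes and 13931 were not listed. A gene was represented by its brightest probe, and 12978 genes were tested. Named genes were the largest called differences, up to 4 members of lists with calls, up to 2 of others, and a fixed set of stress and sex-linked genes; Btg2, Plk2, Gadd45a, Ccng2, Aen, Siva1, Trp53i11, Slc19a2, Sesn1, Mdm4, Ppm1d and Vangl2 were added after their values were seen. Genes and lists were chosen with earlier results of these data known. Pool letters were checked for pairing: deviations of same-letter wildtype and null pools correlated at −0.13, 0.1728 and −0.08982, so letters were not treated as pairs. Removal of both B pools was chosen after seeing the data.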

Additional observations from a re-analysis of the deposited data

Results flagged for a closer look

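The null minus wildtype difference was not the same in both baths for 13 of the probes named (interaction contrast over all 23 arrays, limma adjusted p under 0.05); after heat it was more positive by 1.93 for Dusp28 and 1.23 for Med18 and more negative, on the log2 scale, by −1.26 for Ccng1, −2.07 for 1700007K13Rik, −1.56 for Ddit4l, −1.29 for Phlda3, −1.01 for Dcxr, −0.77 for Cpt1c, −0.80 for Map3k20, −1.04 for Ak1, −0.46 for Zmat3, −1.12 for Bbc3 and −0.96 for an unnamed probe. Of these, 12 were selected by the heat contrast, Bbc3 was not called there, and Dusp28 and Med18 were called in both baths with opposite signs. For Cpt1c and Map3k20 the values are those of the called probe only. The brighter Cpt1c probe had a bath difference of −0.12 (limma adjusted p = 0.54). The other Map3k20 probes had 0.03 (adjusted p = 0.95) and −0.31 (adjusted p = 0.22). The former was already lower in null control pools (−0.65 ± 0.10, adjusted p = 0.015).

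In 5 of 108 groups of 4 pools examined (wildtype and heterozygous heat pools of 54 named probes), a single pool stood far from the other 3. For independent groups chance alone gives about 1 group in 20, and this count is near that share. The groups are not independent, as Hspa1a and Hspa1b have near-identical sequence. The count also takes no account of how wide each gap was. Hspa1a was 0.867 in wildtype pool B against 75 to 116 in the others, and Hspa1b was 4.1 there against 95.1 to 118. In heterozygous pool D, Phlda3 was 4.93 against 3.42 to 3.6 and Cdkn1a was 1.91 against 4.87 to 5.37. Tdp1, a DNA repair enzyme, was 1.75 in wildtype pool D against 1.33 to 1.38.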

How the results depend on the processing

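No called probe reversed its direction in any of the settings run. Dennd5b passed the threshold in all 19 settings and Ccng1 in 18, failing with only the 7 arrays compared (limma adjusted p = 0.093); Ak1 passed in 5, Med18 in 8, Phlda3 and Dusp28 in 9, Ddit4l in 10, Map3k20 and Kif1a in 11, Tecta in 12, Zmat3, Dcxr and 1700007K13Rik in 13 and Cpt1c in 14 of the 19, and Celf5 in 10 of the 17 that tested it. With values as deposited, 7 probes were lower, 2 of the p53 targets fell and their median was −0.0016; with arrays centred on their medians 3 targets fell, and with array weights 3. The stricter filter and the fit with no intensity trend each gave 8 higher probes. Only the 7 arrays compared gave 1 call, 1 higher and 0 lower, with 0 targets; all 23 arrays, with more residual degrees of freedom, gave 209 calls, 89 higher and 120 lower, with 11 targets, Cdkn1a, Sesn2, Pmaip1 and Bbc3 among them. Without both B pools 1 probe was higher. With the replicate block, which sets pools of the same letter as pairs, there were 3 calls, 1 higher and 2 lower, with 1 target, and 15 of the 18 calls were lost; the pools share only a letter. Leaving out each pool in turn gave 3 to 24 calls, 1 to 6 higher, 2 to 18 lower and 1 to 10 targets. The 3 null pools limit the precision of every value, and dim genes such as Mdm2 lie near the floor.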
